A study of Homo sapiens with 6 samples.

Results

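The 10 genes described here encode transcription factors of mesendoderm and endoderm: MIXL1, GSC, LHX1, GATA4, GATA6, SOX17, FOXA2, HHEX, MSGN1 and MESP1. They were found in deposited lists of β-catenin peaks by gene name, whatever the distance of the peak from the gene. The lists assigned 8 of their 3126 peaks to these genes: 5 of 1813 with CHIR+SB, 3 of 1053 with CHIR and 0 of 260 with RPMI. A peak is a stretch of genome where sequenced DNA fragments pile up after chromatin immunoprecipitation (ChIP-seq).

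All samples were human embryonic stem cells of the established line SA121, maintained in DEF-CS medium and left for 6 h in RPMI-1640 medium before fixation. The groups were CHIR+SB (the inhibitors CHIR99021 and SB431542 together), CHIR (CHIR99021 alone) and RPMI (mock treatment, no inhibitor). CHIR99021 blocks GSK3, a kinase whose activity leads to the breakdown of β-catenin. SB431542 blocks the activin/Nodal and TGFβ type I receptors. Each condition had 1 library made with a goat antibody to β-catenin and 1 made with goat IgG, and DNA from 3 parallel ChIPs was pooled for each library. There was therefore no replicate, every interval below covers counting error only, and no p-value was computed. These are binding data without expression, so the labelled cell type was not checked against marker genes.

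Wnt signals keep β-catenin from being degraded, and the protein then acts on genes through DNA-binding partners of the TCF/LEF family. In the vertebrate embryo Wnt and Nodal signals together set up the primitive streak, where cells become mesendoderm and then mesoderm or endoderm. MIXL1, GSC and LHX1 are homeodomain factors of the streak and organizer. GATA4, GATA6, SOX17, FOXA2 and HHEX are factors of endoderm and its organs, and MSGN1 and MESP1 are basic helix-loop-helix factors of early mesoderm. The series asks where β-catenin is bound when Wnt signalling is switched on with GSK3 inhibition, with and without block of activin/Nodal receptors.

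The lists hold 39022 β-catenin reads within peaks with CHIR+SB, 39408 with CHIR and 6272 with RPMI. The normalized signal used below is the read count multiplied by 1 factor per library, set by the authors. For β-catenin, 1 read is worth 0.563 units with CHIR+SB, 0.384 with CHIR and 0.641 with RPMI. For IgG, 1 read is worth 0.394 units with CHIR+SB, 0.706 with CHIR and 0.689 with RPMI. Raw β-catenin and IgG reads given below therefore do not compare directly between conditions. A peak entered the lists with as few as 12, 20 and 15 reads in CHIR+SB, CHIR and RPMI, which correspond to signals of 6.75, 7.68 and 9.61. A site missing from a list has no read count there, so its signal is unknown rather than zero. Coordinates are those of the lists (hg19). Positions within exons or introns were not analysed here.

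Among the 10 genes, 5 had a peak with CHIR+SB (MIXL1, GSC, GATA4, HHEX and MSGN1), 3 had one with CHIR (MIXL1, GSC and GATA4) and none had one with RPMI. Over all protein-coding genes the share with a peak was 6.25% with CHIR+SB, 3.8% with CHIR and 1.14% with RPMI. The genes were chosen with earlier results of these data known, so these counts were not tested against that background. MIXL1, GSC and GATA4 had a peak under both treatments, as had 2.65% of protein-coding genes. No gene had more than 1 peak in a list, and within 100 kb of the start sites of the 5 genes no peak was assigned to another gene. LHX1, GATA6, SOX17, FOXA2 and MESP1 had no peak of their own in any list.

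**Figure D1:**
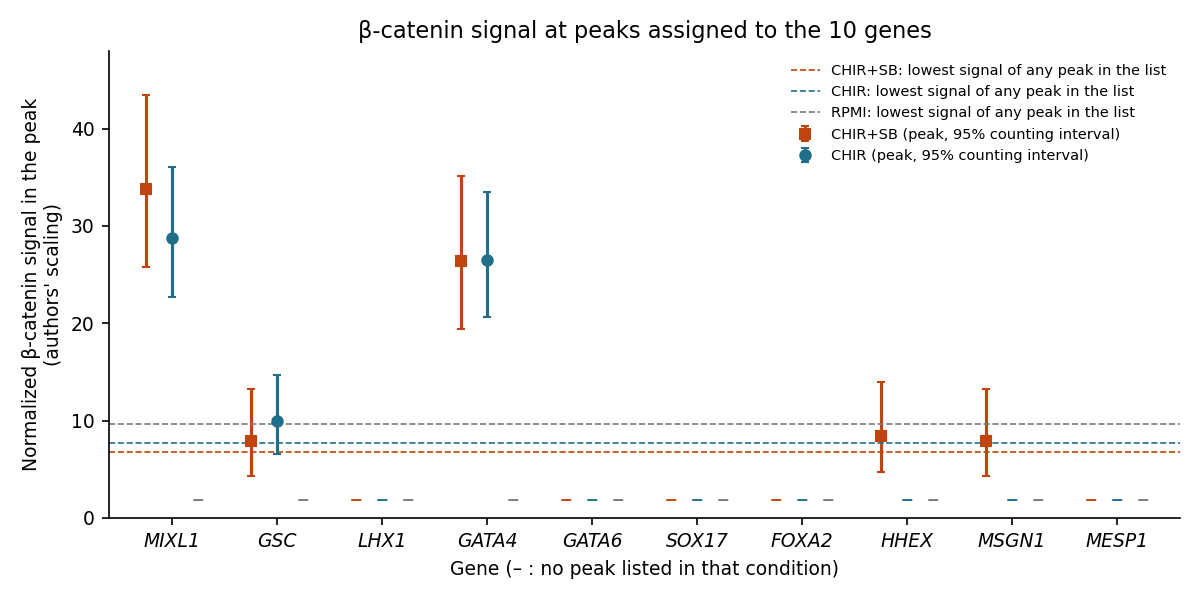
Normalized β-catenin signal (vertical axis, the authors' scaling) at each peak assigned to the 10 genes (horizontal axis), with exact 95% counting intervals, for CHIR+SB (squares) and CHIR (circles); a dash marks a condition with no peak, and dashed lines mark the lowest signal of any peak in each list. MIXL1 and GATA4 lie between 26.4 and 33.8, while GSC, HHEX and MSGN1 lie between 7.88 and 9.98, close to the lines.

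MIXL1, a paired-type homeobox factor of the primitive streak, had the highest signal of the 10 genes. Its peak had 60 β-catenin reads and 16 IgG reads with CHIR+SB (chr1:226398153-226398857), and 75 β-catenin reads and 6 IgG reads with CHIR (chr1:226398183-226398847). The normalized IgG signal there was 6.30 with CHIR+SB and 4.23 with CHIR. No peak was listed for MIXL1 with RPMI. The peak lay 12.9 kb upstream of the start site in both lists, outside the gene, and the CHIR peak fell wholly inside the CHIR+SB peak. In the RefSeq gene order the nearest protein-coding genes to MIXL1 are ACBD3 and LIN9. The signal was 33.8 with CHIR+SB (95% interval 25.8 to 43.4) and 28.8 with CHIR (22.7 to 36.1). It ranked 23rd of the 1813 CHIR+SB peaks and 56th of the 1053 CHIR peaks. These signals were 3.51 times (CHIR+SB) and 3.00 times (CHIR) the lowest signal of any RPMI peak.

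The MIXL1 promoter itself held no listed peak. Its 250 bases before the start site are shown because they contain CTTTGA (in capitals), the core of the sequence that TCF/LEF proteins bind, 76 bases before the start (RefSeq, GRCh38.p14, chr1:226223414-226223663, plus strand).
MIXL1: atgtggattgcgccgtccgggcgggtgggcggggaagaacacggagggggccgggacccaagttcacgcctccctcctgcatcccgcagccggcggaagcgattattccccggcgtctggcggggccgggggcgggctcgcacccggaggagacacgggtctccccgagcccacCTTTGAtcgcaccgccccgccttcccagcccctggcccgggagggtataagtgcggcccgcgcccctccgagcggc
RefSeq windows were at hand for 5 of the 10 genes. The motif, searched as CTTTGA on both strands, occurred once in those of MIXL1 and MSGN1 and not in those of GSC, HHEX and GATA6. Of all 35116 windows of this length, 11.2% held it. A match describes these letters and is not evidence of binding.

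GATA4, a zinc finger factor of endoderm and heart, had 47 β-catenin and 8 IgG reads with CHIR+SB (chr8:11567191-11567932), and 69 and 7 reads with CHIR (chr8:11567165-11567953). RPMI had no peak. The peak lay inside the gene, 5.85 kb (CHIR+SB) and 5.84 kb (CHIR) downstream of the start site in a gene of 55793 bp. The CHIR+SB peak fell wholly inside the CHIR peak, and the centres were 2.5 bp apart. Signal was 26.4 with CHIR+SB (19.4 to 35.2) and 26.5 with CHIR (20.6 to 33.5). The peak ranked 68th with CHIR+SB and 66th with CHIR. Its signal was 2.75 times (CHIR+SB) and 2.76 times (CHIR) the lowest RPMI signal.

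GSC, the homeobox gene goosecoid of the organizer and anterior streak, had 14 β-catenin and 6 IgG reads with CHIR+SB (chr14:95235022-95235183), and 26 and 5 reads with CHIR (chr14:95234767-95234951). It had no peak with RPMI. Both peaks lay near the end of this gene of 1940 bp, 0.544 kb (CHIR+SB) and 0.300 kb (CHIR) before the gene end. They did not overlap: 71 bp separated them and their centres were 244 bp apart. Signal was 7.88 with CHIR+SB (4.31 to 13.2) and 9.98 with CHIR (6.52 to 14.6). With CHIR+SB, GSC was among the 433 peaks with 14 reads, and 0.331% of the list lay below it. With CHIR, 29.6% of the list lay below it.

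HHEX, a homeobox factor of anterior endoderm and of liver and thyroid, had a peak with CHIR+SB only. The peak had 15 β-catenin and 6 IgG reads, 1.73 kb downstream of the start site and inside the gene (chr10:94451348-94451474). Its signal was 8.44 (4.72 to 13.9), and 24.2% of the CHIR+SB list lay below it. The same signal would have been 22.0 reads in the CHIR library, where the lowest peak had 20, and 13.2 reads in the RPMI library, where the lowest had 15. These values lie within counting error of the lower edge of the CHIR list and under that of the RPMI list, so the absence of HHEX from them does not show a lower signal there.

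MSGN1, the mesogenin gene of presomitic mesoderm, also had a peak with CHIR+SB only. It had 14 β-catenin and 6 IgG reads, 15.5 kb from the start site and 14.9 kb beyond the end of the gene (chr2:18013224-18013338). Its signal was 7.88 (4.31 to 13.2), the same read count as GSC in that list. This signal would have been 20.5 reads in the CHIR library and 12.3 reads in the RPMI library, so a site of equal signal would have been at the lower edge of the CHIR list and below that of RPMI. The MSGN1 promoter is shown as the other one that held CTTTGA (capitals), 85 bases before the start site (RefSeq, GRCh38.p14, chr2:17816210-17816459, plus strand).
MSGN1: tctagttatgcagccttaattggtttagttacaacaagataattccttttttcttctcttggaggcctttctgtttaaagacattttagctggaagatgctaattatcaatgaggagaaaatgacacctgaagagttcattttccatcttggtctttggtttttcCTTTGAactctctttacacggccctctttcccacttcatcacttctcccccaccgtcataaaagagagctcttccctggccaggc
No list had a peak over this promoter.

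**Figure D2:**
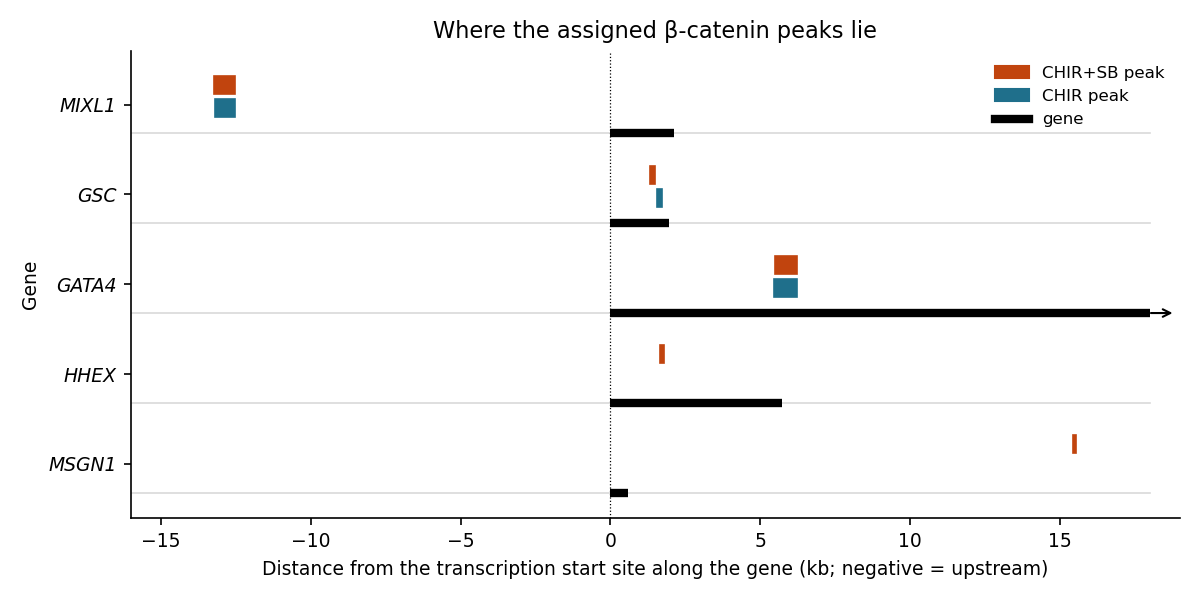
Position of the assigned peaks along the 5 genes that had one (rows), as distance from the start site in kb (horizontal axis, negative is upstream), with CHIR+SB peaks drawn above CHIR peaks and the gene as a black bar; the arrow marks that GATA4 runs on to 55.8 kb. The MIXL1 and GATA4 peaks of both conditions coincide, the GSC peaks lie side by side, and no peak covers a start site.

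None of the 8 peaks was centred within 1 kb of a start site, where 14.5% of CHIR+SB peaks and 26.6% of CHIR peaks were. Of the 8, 5 lay within the gene (GSC, GATA4 and HHEX), 2 upstream (MIXL1) and 1 downstream (MSGN1). MIXL1, GSC and GATA4 count here once in each treated list. Over all peaks, 33.6% with CHIR+SB and 33.1% with CHIR lay within the gene. Upstream were 38.5% and 42.9%, and downstream 27.9% and 23.9%. All 8 had IgG reads, as had all but 5 of the 1813 CHIR+SB peaks and all but 28 of the 1053 CHIR peaks. The nearest to a start site was the GSC peak with CHIR+SB, at 1.40 kb.

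MIXL1 and GATA4, with the higher signals, had wider peaks than GSC, HHEX and MSGN1. In the lists as a whole signal and width had a Spearman correlation of 0.929 with CHIR+SB and 0.938 with CHIR (over peaks of 1 library each) and the median width was 260 bp with CHIR+SB and 368 bp with CHIR. With CHIR+SB, the GATA4 and MIXL1 peaks were 741 and 704 bp wide, and those of GSC, HHEX and MSGN1 were 161, 126 and 114 bp wide. With CHIR, the GATA4 and MIXL1 peaks were 788 and 664 bp wide and that of GSC was 184 bp wide. Per kb of peak, the order of the genes was another one. The β-catenin signal per kb with CHIR+SB was 69.1 for MSGN1 (37.8 to 115.9) and 66.97 for HHEX (37.5 to 110.5). It was 48.9 for GSC (26.7 to 82.1), 47.9 for MIXL1 (36.6 to 61.7) and 35.7 for GATA4 (26.2 to 47.4). All 5 intervals overlap. With CHIR it was 54.3 for GSC (35.4 to 79.5), 43.4 for MIXL1 (34.1 to 54.4) and 33.6 for GATA4 (26.2 to 42.6), again with overlapping intervals. IgG reads per kb were also higher in the narrow peaks: with CHIR+SB they were 52.6 at MSGN1, 47.6 at HHEX and 37.3 at GSC, against 22.7 at MIXL1 and 10.8 at GATA4. The list medians with CHIR+SB were 40.2 for the β-catenin signal per kb and 23.5 for IgG reads per kb, and with CHIR 36.4 and 11.0. These IgG values are raw reads, so they compare neither with the normalized β-catenin signal nor between conditions.

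Signal over IgG, the normalized β-catenin signal divided by the normalized IgG signal in the same stretch, ran between 2.83 at GSC with CHIR and 8.39 at GATA4 with CHIR+SB. At GATA4 it was 8.39 with CHIR+SB (3.93 to 20.6) and 5.36 with CHIR (2.47 to 13.8). At MIXL1 it was 5.36 with CHIR+SB (3.05 to 9.97) and 6.80 with CHIR (2.98 to 19.1). At GSC it was 3.33 with CHIR+SB (1.20 to 10.6) and 2.83 with CHIR (1.07 to 9.44). With CHIR+SB it was 3.57 at HHEX (1.31 to 11.2) and 3.33 at MSGN1 (1.20 to 10.6). The list medians were 4.29 with CHIR+SB and 4.66 with CHIR, so GATA4 and MIXL1 stood above the median and GSC, HHEX and MSGN1 below it in each list that held them. All intervals of these 8 peaks overlap one another. All 8 lower bounds were above 1, as were those of 99.8% of CHIR+SB peaks and 99.6% of CHIR peaks. The lower bound was above 2 for MIXL1 and GATA4 in both lists and for none of the other 3 genes, and 30.6% of CHIR+SB peaks and 29.5% of CHIR peaks passed this limit.

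**Figure D3:**
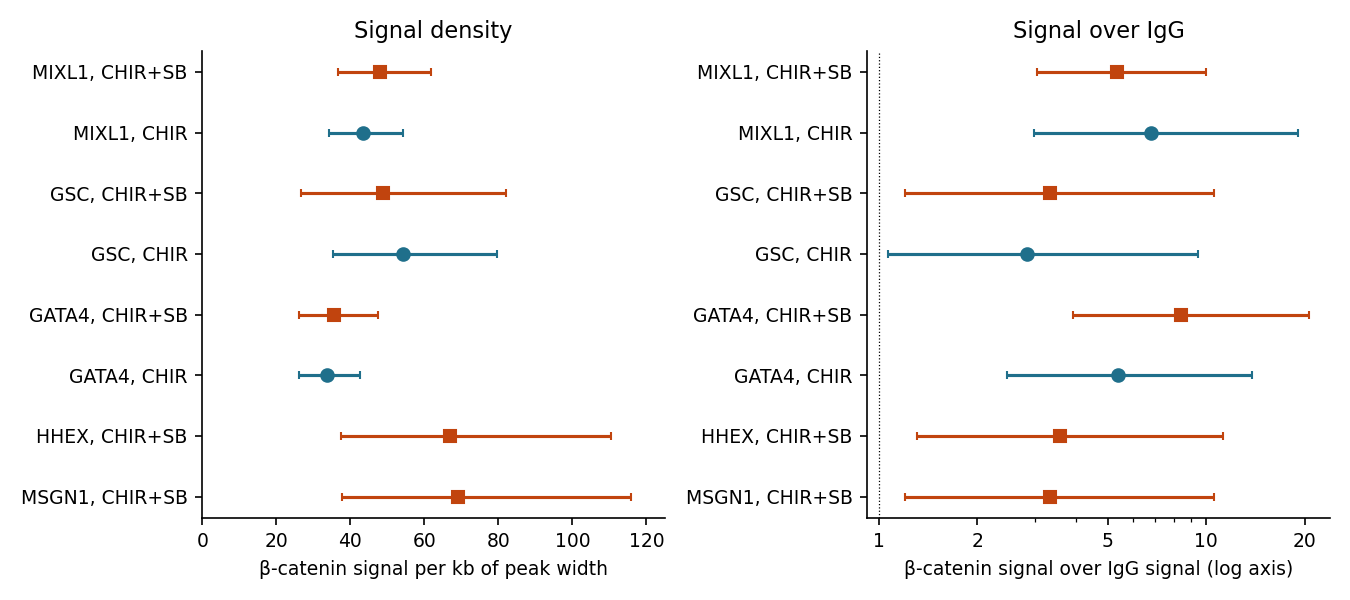
The 8 peaks (rows) by β-catenin signal per kb of peak width (left) and by β-catenin signal over IgG signal (right, log axis, dotted line at 1), with exact 95% counting intervals; squares are CHIR+SB and circles CHIR. The intervals overlap in each panel, and all lie above 1 on the right.

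The first comparison is CHIR+SB with CHIR. For 2 of the 5 peaks with CHIR+SB, those of MIXL1 and GATA4, a peak of the CHIR list overlapped, which leaves 1 of the 3 CHIR peaks, that of GSC, without a partner. In the lists as a whole a partner was found for 36.6% of the peaks with CHIR+SB and for 63.3% of those with CHIR. At MIXL1 the CHIR+SB signal was 1.17 times the CHIR signal (0.820 to 1.67), and at GATA4 0.998 times (0.674 to 1.47). Both intervals include 1 and allow a difference of up to 1.67 times at MIXL1. The median over 642 peaks that overlapped one-to-one was 1.00, the interval lay above 1 at 6.7% of them and below 1 at 4.21%. Per kb of peak width the ratio was 1.11 at MIXL1 and 1.06 at GATA4, and after subtraction of the IgG signal 1.12 and 1.08. At GSC the peaks did not overlap, and the quotient of their signals was 0.789 (0.381 to 1.57).

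The share of peaks with a partner in the other list can also be set out for peaks of like signal. With CHIR, 71 peaks had at least the signal of GATA4, and 70 of them (98.6%) had a partner with CHIR+SB. With CHIR+SB, 669 peaks had at most the signal of HHEX, and 50 of them (7.47%) had a partner with CHIR. With CHIR, 356 peaks had at most the signal of GSC, and 127 of them (35.7%) had a partner with CHIR+SB. MIXL1 and GATA4 thus belong to a range of signal in which nearly all peaks were shared, and HHEX and MSGN1 to one in which few were.

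The second comparison is CHIR with RPMI. None of the 3 CHIR peaks overlapped an RPMI peak, and over the whole list 17% of CHIR peaks did. Among the 71 CHIR peaks with at least the signal of GATA4, 40 overlapped an RPMI peak (56.3%). Among the 33 of them that lay more than 1 kb from a start site, as those of MIXL1 and GATA4 did, 5 overlapped one (15.2%) and 28 did not. None of the 5 CHIR+SB peaks overlapped an RPMI peak either, against 8.77% of that list. The CHIR signal at GSC was 1.04 times the lowest RPMI signal, and the CHIR+SB signals at GSC, HHEX and MSGN1 were 0.819, 0.878 and 0.819 times it. Peaks with the CHIR+SB signals of GSC, HHEX and MSGN1 would thus fall under the lower edge of the RPMI list, and peaks with the signals of MIXL1 and GATA4 well above it. The lists were called separately. The inverse of the authors' factor was 1.14 times that of RPMI for CHIR+SB and 1.67 times for CHIR. These values are relative library depths only if the factors scale for depth, which the sources do not state. The part of depth in the absence from RPMI was not tested.

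**Figure D4:**
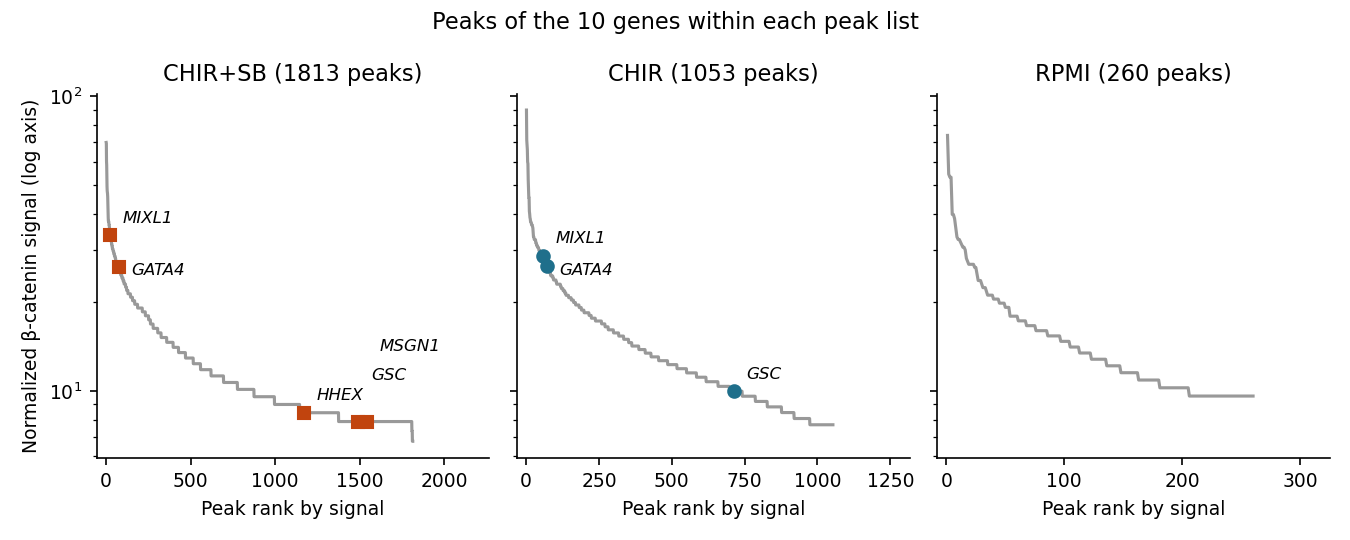
All peaks of each list in order of signal (horizontal axis, rank; vertical axis, normalized β-catenin signal on a log scale), with the peaks of the 10 genes marked, for CHIR+SB, CHIR and RPMI from left to right; peaks with equal signal are placed in order of position. MIXL1 and GATA4 sit on the steep part among the highest peaks, GSC, HHEX and MSGN1 in the flat tail, and no mark falls on the RPMI curve.

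FOXA2, a forkhead factor that opens chromatin in endoderm, had no peak by name, but the gene next to it in the RefSeq order, LINC00261, had peaks in both treated lists. LINC00261 makes a long noncoding RNA known from differentiating endoderm. Its peak just upstream of its start site, at 0.695 kb with CHIR+SB and 0.720 kb with CHIR, had 34 β-catenin and 14 IgG reads with CHIR+SB (chr20:22559705-22560244), and 60 and 5 reads with CHIR (chr20:22559654-22560346). The signal with CHIR+SB was 0.830 times that with CHIR (0.528 to 1.29). The CHIR+SB peak was also the narrower one, with 539 bp against 692 bp, a width ratio of 0.779. Signal over IgG was 3.47 with CHIR+SB (1.81 to 6.999) and 6.53 with CHIR (2.65 to 20.8). A peak inside LINC00261 lay 10.98 kb from its start site with CHIR+SB (42 reads, 10 IgG reads), and another 3.23 kb from it with CHIR (29 reads, 4 IgG reads). The lists give no distance from these peaks to FOXA2, so they are not counted as FOXA2 peaks.

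For the other genes without a peak, the names between their nearest protein-coding neighbours in RefSeq were searched in the same way. Nothing was listed there around LHX1 (a LIM homeodomain factor of organizer and kidney), GATA6 (a zinc finger factor of extraembryonic and definitive endoderm) or SOX17 (an HMG-box factor of definitive endoderm). Next to MESP1, a factor of early heart mesoderm in the mouse, WDR93 had a CHIR peak of 24 β-catenin reads and no IgG read, 37.7 kb from the WDR93 start site within that gene (chr15:90271664-90271876). With 0 IgG reads no ratio can be given, and the lower bound of signal over IgG was 3.28. No peak was listed for WDR93 with CHIR+SB or RPMI. Gene order was taken from another genome build than that of the lists, so distances to these 5 genes are not given.

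Among 35 other genes of mesendoderm and endoderm, 19 had a peak with CHIR+SB, 16 with CHIR and none with RPMI. Of all protein-coding genes, 6.25% had one with CHIR+SB, 3.8% with CHIR and 1.14% with RPMI. Within 50 kb of the start site the numbers were 14 with CHIR+SB and 14 with CHIR, where the shares of protein-coding genes were 3.73% and 2.69%. This list too was drawn up with results known and was not tested. Under both treatments, where 2.65% of protein-coding genes had a peak, 14 of the 35 did. Among them were the T-box gene EOMES, the ligand gene NODAL, its coreceptor gene TDGF1 and the Nodal pathway factor FOXH1. EVX1, also among them, had the highest signal of the 35 genes in both lists, 52.9 with CHIR+SB and 37.6 with CHIR. These signals were above those of MIXL1. The count of 14 is by gene name, at any distance and not by shared site. GATA3 peaks lay 1043 kb away. For TBX3 the distance was 44.9 kb with CHIR+SB and 4.39 kb with CHIR, and for DKK1 39.0 and 64.2 kb. EOMES had its highest peak 6.36 kb upstream with CHIR+SB (54 β-catenin and 24 IgG reads) and 6.31 kb upstream with CHIR (78 and 8 reads). The pancreatic and duodenal homeobox gene PDX1 had 23 reads with CHIR+SB at 5.14 kb and 24 reads with CHIR at 4.94 kb, inside the gene. OTX2, a head homeobox factor, had 16 reads with CHIR+SB and 32 reads with CHIR close to its start site. With CHIR+SB and not CHIR, the genes with an assigned peak included CXCR4, FOXA1, KDR and PRDM1, of 14 to 16 reads each. The FOXA1 peak lay 10.9 kb from the start site, and those of KDR, PRDM1 and CXCR4 71.2, 99.5 and 392 kb. These counts were close to the lowest of the CHIR+SB list (12 reads), like those of HHEX and MSGN1. The absence of these 4 genes from the CHIR list therefore does not show a lower signal with CHIR. With CHIR and not CHIR+SB, peaks were assigned to HAND1 (20 reads) and to T, the brachyury gene (28 reads). The HAND1 peak had the lowest read count of the CHIR list. Its signal of 7.68 was close to the lowest of the CHIR+SB list (6.75), so its absence there does not show a lower signal. The T peak had a signal of 10.8, below the CHIR median of 11.9. No read count is listed at that site with CHIR+SB, so a lower signal at T was not tested. The 14 genes with no peak in any list included the Nodal inhibitors LEFTY1, LEFTY2 and CER1, the endoderm genes HNF4A, FOXA3 and GATA5, and MESP2, the neighbour of MESP1.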

How the data were processed

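β-catenin and IgG ChIP-seq libraries from SA121 cells were analysed through 3 deposited peak lists, 1 per β-catenin library. The authors deposited whole-read counts of both libraries within each peak, a normalized signal (count times 1 factor per library), their ratio and −log10 p-values, per the file headers; the comparisons use counts and signals, and the p-values are only described in the closing section. Decimal commas were read as points. Bowtie and the builds hg19 and mm9 are named in the submitters' processing notes; the gene positions in the lists are not those of GRCh38, and human peaks were taken as hg19. For the peak caller, its thresholds and library depths, nothing is stated in the sources used here. The control column was taken as the IgG library of the same condition, which each file header names. Doses are omitted because their unit could not be checked.

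Peaks were selected by gene name. Overlap meant at least 1 bp. Signal intervals are exact Poisson, and ratios have exact conditional binomial (Clopper-Pearson) 95% intervals, computed with SciPy 1.17.1. The ratio intervals were run on simulated Poisson counts. This checks the computation only, because such counts hold no variation between libraries or in peak boundaries. RefSeq (GRCh38.p14) supplied names, gene order and promoter sequences; 99.2 to 100% of gene names matched. The 10 genes and the 35 further genes were chosen with earlier results of these data known, and all peaks of the 10 are named. Alternatives covered distance, peak threshold, overlap rule, scaling, width and IgG.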

Additional observations from a re-analysis of the deposited data

How the results depend on the processing

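The number of the 10 genes with a peak depended on the threshold with CHIR+SB more than with CHIR. With CHIR+SB it was 5 as deposited and within 50 kb, 3 within 10 kb, and 2 with the highest of the minimum signals (9.61) applied to each list, with the 260 highest peaks, or with a lower bound of signal over IgG above 2. With CHIR it was 3 as deposited, within 50 kb and at the common minimum, and 2 in the other settings. With RPMI it was 0 throughout. The lists themselves shrank too. The CHIR+SB list of 1813 peaks fell to 945 within 50 kb, 521 within 10 kb, 874 at the common minimum and 554 with the IgG limit. The CHIR list of 1053 peaks fell to 692, 470, 741 and 311 in the same settings. Whether the 10 genes depended on the threshold more than the lists as a whole was not tested. The numbers of peaks of the 10 genes equalled the numbers of genes, since each gene had 1. Genes with a peak under both treatments numbered 3, or 2 within 10 kb and under each stricter threshold. Genes with a peak under 1 treatment alone numbered 2 as deposited, 1 within 10 kb (HHEX) and at the common minimum, where it was GSC with CHIR in place of HHEX and MSGN1 with CHIR+SB, and 0 with the 260 highest peaks or the IgG limit. With centres within 1 kb counted as shared, GSC joined MIXL1 and GATA4. The ratios at MIXL1 and GATA4 stayed within their intervals in all settings. So did the 16 alternative values of signal over IgG (2.45 to 7.62 with 1 read added to both counts, 2.33 to 12.5 as raw reads). No ratio of CHIR over RPMI could be formed, because no peak of these genes was listed in RPMI. No paired analysis was possible because each condition had 1 library per antibody. The weak peaks, with 14 and 15 reads, are within 3 reads of the lowest peak of the CHIR+SB list.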

Other observations

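The CHIR+SB peak inside LINC00261, the neighbour of FOXA2, was picked out after its value was seen. It had a signal of 23.6 and ranked 101st of 1813 (chr20:22547922-22548686). Of the 106 CHIR+SB peaks with at least this signal, 2 had no overlapping CHIR peak (1.89%), this one and one assigned to RMI2. The nearest CHIR peak was 7.18 kb away. The same signal would have been 61.5 reads in the CHIR library and was 3.08 times the lowest signal of the CHIR list. Signal over IgG was 6.00 with CHIR+SB (95% interval 2.96 to 13.4). There was 1 library per condition and the difference was not tested.

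Further from FOXA2, LOC284788 had a peak in both treated lists 9.52 kb (CHIR+SB) and 9.54 kb (CHIR) upstream of its start site, with 29 reads with CHIR+SB and 31 with CHIR. The signal ratio of CHIR+SB to CHIR was 1.37 (0.797 to 2.35), and the width ratio was 1.35. In the CHIR+SB list alone, LOC284788 had a further peak of 14 reads 66.0 kb upstream of its start site. LINC01432 had a peak of 15 reads there, 175 kb from its start site. Their signals of 7.88 and 8.44 were close to the lowest of the CHIR list (7.68), so their absence from it does not show a lower signal.

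The 2 kinds of −log10 p-value in the authors' deposited lists did not place the peaks of the 10 genes alike. MIXL1 and GATA4 were above GSC, HHEX and MSGN1 by one value and below them by the other in each list that held them. With CHIR+SB, MIXL1 was above GATA4, and HHEX above GSC and MSGN1, by both values. By the value of the header's "distr." column, MIXL1 stood at 64.7 with CHIR+SB and 66.0 with CHIR, and GATA4 at 46.1 with CHIR+SB and 58.4 with CHIR. By the same column GSC stood at 7.59 with CHIR+SB and 12.7 with CHIR, and with CHIR+SB HHEX stood at 8.47 and MSGN1 at 7.59. By the "local" column, MIXL1 stood at 4.02 with CHIR+SB and 4.20 with CHIR, below GSC at 5.80 with CHIR+SB and 6.70 with CHIR. HHEX had 6.24 and MSGN1 5.58 with CHIR+SB, and GATA4 had 3.84 with CHIR+SB and 4.77 with CHIR. Across all peaks of a list, the local value and peak width had a Spearman correlation of −0.325 with CHIR+SB, −0.391 with CHIR and −0.532 with RPMI, as a description over peaks of 1 library each. What the local value tests is not stated in those lists.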
